A study of Mus musculus with 9 samples.

Results

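Expression of 42 genes of the autophagy machinery and its lysosomal regulators was compared between wild-type (WT) Lewis Lung Carcinoma (LLC) cells and 2 CD47 knockout (KO) clones. The genes were taken by symbol from the deposited table of 50813 genes, and all 42 were among the 14593 genes with enough counts to be tested. They comprise 5 members of the ULK initiation complex, 7 of the class III PI3K complexes and their regulators, 6 genes of membrane supply, 10 of the conjugation machinery, 5 of the ATG8 family, 5 cargo receptors and adaptors, and 4 lysosome regulators. LLC is a mouse lung carcinoma line, and Cd47 encodes a cell-surface protein that engages SIRPα on phagocytes. The 9 RNA-seq libraries were 3 of WT cells, 3 of KO clone E3 and 3 of KO clone E5, all from cells grown in DMEM with fetal bovine serum and antibiotics with no treatment named in the labels. The submitters describe both the WT and the KO cells as clonal, and the KO lines came from delivery of Cas9 protein with a guide RNA, so each KO line is 1 clone and the effect of the edit cannot be told apart from other differences between clones. The study's methods describe the replicates as independent and biological, and p-values measure the spread between such replicates of 1 line each.

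Autophagy encloses cytoplasm in a double membrane that is delivered to lysosomes. The ULK complex starts the process, the class III PI3K complex around Beclin 1 marks the site with phosphatidylinositol 3-phosphate, ATG9 vesicles and lipid transfer proteins feed the growing membrane, and conjugation enzymes attach LC3 and GABARAP proteins of the ATG8 family to lipid, where cargo receptors bind. The transcription factors TFEB and TFE3 induce genes of autophagy and of the lysosome through an E-box-containing element in their promoters, and most regulation of the pathway acts on proteins, which mRNA levels do not show.

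Total counts ranged from 44257404 to 55095219 per library. Cd47 itself, the targeted gene, was at 182 ± 3.92 CPM in WT (counts scaled to library size and by the TMM method; SD, n = 3), 44.6 ± 6.87 in clone E3 and 17.4 ± 1.66 in clone E5, so the transcript was reduced but still present in both KO lines. Remaining transcript does not show remaining protein. The study reports frameshifting indels in its KO clones and loss of CD47 protein by flow cytometry, immunoblotting and immunofluorescence. Of the markers that define the line, Vim was at 4166 ± 45.0 CPM in WT and Krt8 at 191 ± 8.34, while Epcam and Nkx2-1 had no count in any library. Of 7 leukocyte markers only Cd14 had enough counts to be tested, at 11.5 ± 0.366 CPM in WT and 21.0 ± 1.00 in clone E5, and Ptprc had at most 2 counts in a library. The summed leukocyte markers ranged from 11.2 to 11.8 CPM in WT, 9.78 to 14.1 in clone E3 and 19.9 to 22.0 in clone E5, and none of 4 endothelial markers could be tested. Krt8 and Krt18 moved in opposite directions in the clones, with log2 fold changes of -2.33 and -1.08 in E3 and 0.95 and 1.08 in E5.

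Replicate 3 of clone E3 stood apart from the other libraries, and this bears on every value of clone E3. Relative to the other 2 replicates of its clone, short transcripts were high and long transcripts low in it, with a Spearman correlation of -0.73 with transcript length over 10954 genes and -0.74 over the 42 autophagy genes. In WT and clone E5 libraries the corresponding correlations over all genes lay between -0.22 and 0.27. The median coefficient of variation of the 42 genes was 4.23% in WT, 4.81% in clone E5 and 15.5% in clone E3, and 4.68% in clone E3 without replicate 3. Its extreme was Wdfy3, a large scaffold protein of selective autophagy with the longest transcript in the set, which was at 62.0, 85.6 and 19.3 CPM in clone E3. Because 1 estimate of the spread was used for all 3 lines, this library also affects the comparison of clone E5 with WT, and the counts of called genes are given with and without it.

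**Figure D1:**
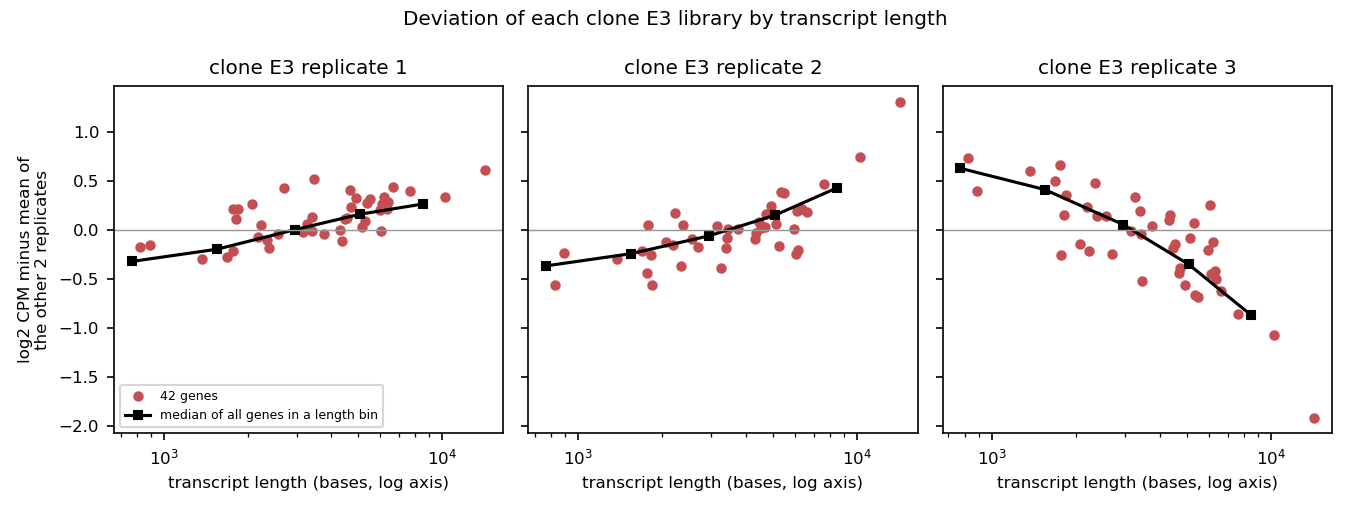
Each panel plots, for 1 library of clone E3, the log2 CPM minus the mean of the other 2 replicates (vertical axis) against transcript length in bases (log axis), with the 42 genes as red points and the median of all genes in 5 length bins as black squares. In replicate 3 the bin medians fall from 0.63 for transcripts up to 1000 bases to -0.87 for those over 7000 bases.

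Most of the 42 genes differed little between the lines. At an FDR under 0.05 (the quasi-likelihood F test of edgeR, adjusted over all 14593 genes by the Benjamini-Hochberg method), 10 of them differed between clone E3 and WT, where 30.5% of all tested genes were called. Of these, 5 were higher and 5 lower, beside 15.7% and 14.7% of all genes. In clone E5 against WT, 9 were called, against 20.6% of all genes, with 6 higher and 3 lower beside 8.96% and 11.7%. Between the clones 9 were called, against 31.9%, with 5 higher and 4 lower in E5 beside 14.7% and 17.2%. The share of autophagy genes that changed was thus near or below that of the transcriptome. The median log2 fold change of the 42 genes was -0.03 in E3 and 0.03 in E5, beside 0.01 and 0.00 for all tested genes. Tfeb in clone E3 was the only one of the 42 to reach the DEG threshold of an absolute log2 fold change above 1, which 9.82% of all genes reached in E3, 8.21% in E5 and 11% between the clones. In 25 of the 42 genes no comparison between lines was called in the fit of all libraries. The share of all genes without any call was not computed, so this number shows nothing particular to the 42.

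Tfeb, Lamp1 and Wipi1 were higher and Vmp1 was lower in both clones. These were the 4 genes called in both comparisons with WT, each in the same direction, where 10.8% of all tested genes were called in both. The comparisons share the WT libraries, so these calls are not independent of each other. In 1 contrast of all 6 KO libraries with the 3 of WT, these 4 genes and no other of the 42 were called, against 6.94% of all genes. That contrast counts the libraries of both clones as 6 replicates, so its p-values do not measure the spread between clones as units. It also reuses the same libraries and adds no separate evidence. Without WT replicate 1 or 2 that contrast called 0 of the 42, beside 1.65% and 1.35% of all genes. Without WT replicate 3 it called 1, beside 1.75%. Leaving out replicate 3 of clone E3 gave 19 called genes in E3 and 21 in E5, against 43.2% and 42% of all genes, with no earlier call lost. The genes called in both clones were then 9, against 23.6% of all genes, each in the same direction in both, and added Atg2a and Atg9a among the higher and Atg3, Becn1 and Tax1bp1 among the lower.

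**Figure D2:**
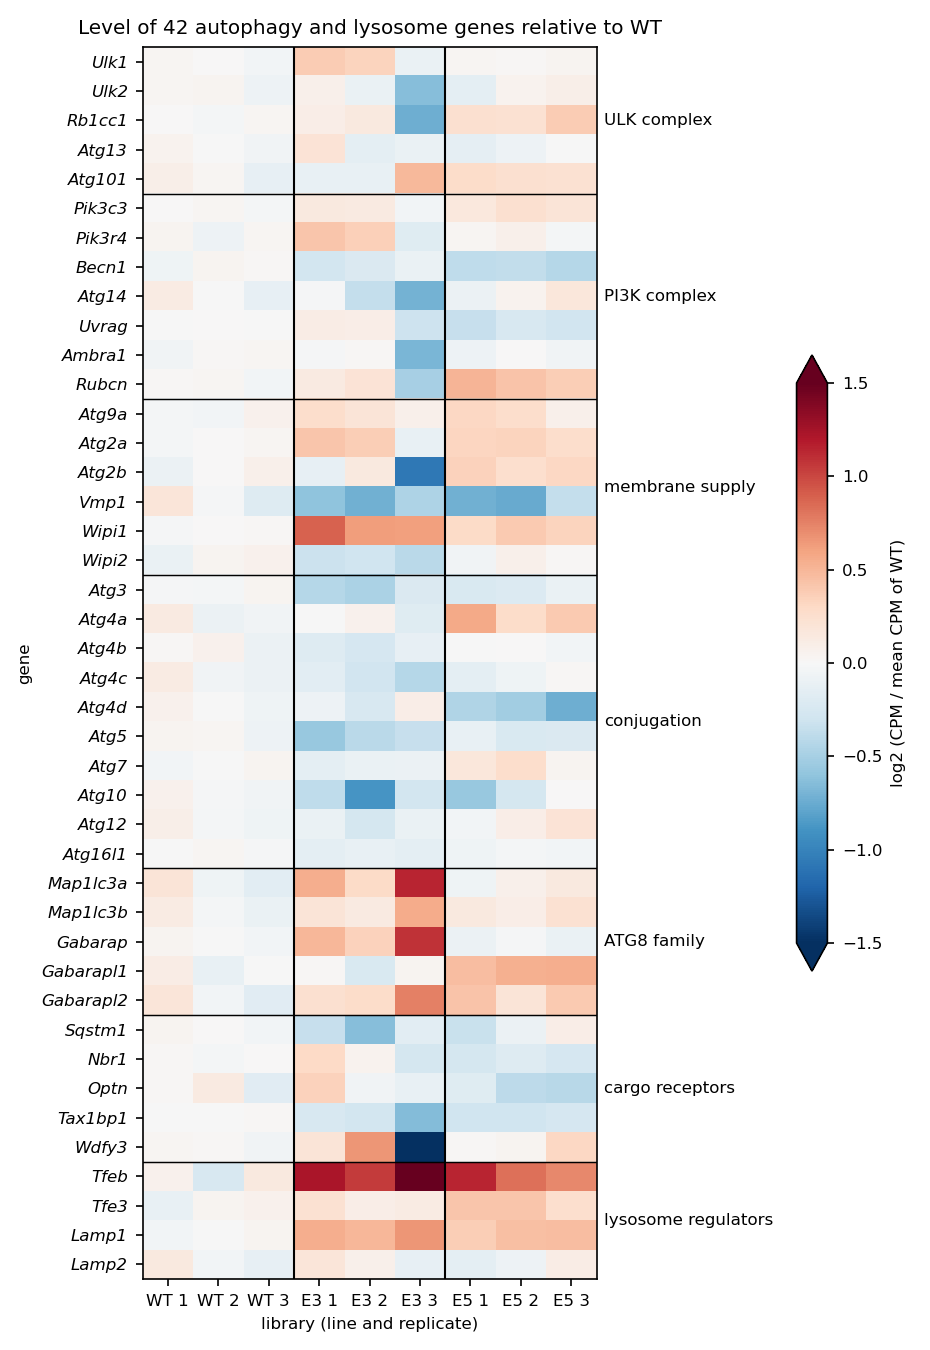
Colours give the log2 ratio of each library's CPM to the mean CPM of WT for the 42 genes (rows, grouped by role) in 9 libraries (columns), with colours saturating at 1.5 in either direction. Tfeb, Lamp1 and Wipi1 are red and Vmp1 blue in all 6 KO libraries, and replicate 3 of clone E3 departs from its 2 sister libraries in many rows.

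Among the lysosome regulators, the transcripts of Tfeb, Tfe3 and the lysosomal membrane glycoprotein Lamp1 were higher in at least 1 clone, and Lamp2 was not called in either. Tfeb (ENSMUSG00000023990.19, GRCm39 chromosome 17 from 48047955 to 48103344, plus strand), the master transcription factor of lysosomal genes, was at 2.38, 1.94 and 2.51 CPM in WT, 5.32, 4.71 and 6.95 CPM in clone E3 and 5.04, 4.03 and 3.75 CPM in clone E5. Every KO library lay above every WT library. Clone E3 gave a log2 fold change of 1.31 ± 0.19 (SE, adjusted p = 0.000718), or 2.48-fold. For clone E5 it was 0.91 ± 0.19 (adjusted p = 0.00799), or 1.88-fold. These are low levels, with 92 to 119 counts per WT library, and Tfeb ranked last of the 42 genes by CPM per kilobase in WT. The clones did not differ detectably from each other (log2 fold change of E5 over E3 -0.40 ± 0.19, adjusted p = 0.123). Its call held in both clones in all 9 fits that left out a library and under all 9 other settings, with log2 fold changes in the former of 1.14 to 1.42 in E3 and 0.77 to 0.99 in E5.

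Tfe3, a close relative of Tfeb with a shared binding site, was at 27.0, 30.2 and 30.5 CPM in WT, 34.4, 31.3 and 31.8 CPM in E3 and 39.1, 39.1 and 34.9 CPM in E5. All KO values exceeded all WT values, but only the E5 difference was called (log2 fold change 0.37 ± 0.10, adjusted p = 0.0215), and E3 gave 0.15 ± 0.10 (adjusted p = 0.261). The E5 call was lost when any WT replicate, or replicate 1 or 2 of clone E5, was left out, with log2 fold changes of 0.31 to 0.39 and adjusted p-values of 0.0579 to 0.106. The median over the 63 nearest tested genes with a position on the X chromosome was 0.30 in the same comparison, close to the change of Tfe3 itself. The ratio of Tfeb to Tfe3 CPM rose from 0.078 ± 0.013 (SD, n = 3) in WT to 0.175 ± 0.038 in E3 and 0.113 ± 0.014 in E5.

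Lamp1 (ENSMUSG00000031447.8, chromosome 8 from 13209161 to 13225338, plus strand), a major glycoprotein of the lysosomal membrane, was at 487, 500.0 and 514 CPM in WT, 728, 709 and 791 CPM in E3 and 647, 683 and 687 CPM in E5. The 3 lines did not overlap, with WT lowest and E3 highest. Lamp1 exceeded WT by 0.57 ± 0.09 on the log2 scale in E3 (adjusted p = 0.001). The corresponding value for E5 was 0.43 ± 0.09 (adjusted p = 0.0069), while the difference between clones was not called (-0.14 ± 0.09, adjusted p = 0.246). Both calls held in every fit that left out a library and under all 9 other settings. Lamp2, which encodes the other major membrane glycoprotein and a receptor of chaperone-mediated autophagy, ranged from 161 to 194 CPM in WT, 161 to 199.6 in E3 and 158 to 189.8 in E5, and its log2 fold changes were 0.05 ± 0.12 for E3 and -0.03 ± 0.12 for E5. The ratio of Lamp1 to Lamp2 was 2.87 ± 0.35 in WT, 4.14 ± 0.69 in E3 and 3.94 ± 0.28 in E5. The exons of Lamp1 overlap those of Grtp1 on the other strand over 2564 bases, and the strand setting of the counting is not given in the sources used here.

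The promoter of Lamp1 was examined because TFEB and TFE3 bind the CLEAR element, in which the E-box CACGTG is preceded by GT and followed by AC. In RefSeq windows from 250 bases before to 50 bases after the transcription start, available for 35 of the 42 genes, the core occurred in Lamp1, Atg3, Atg5, Atg7, Atg14 and Rubcn, that is in 6 of 35, and in 8.09% of 27025 genes. Both strands were searched, and CACGTG reads the same on either. The full element occurred in none of the 35 and in 0.37% of all genes, and its inner 8 bases TCACGTGA, which contain the core, occurred in Atg3 and in 1.12% of genes. The Lamp1 window held 4 copies of the core, a number that 6 of the 27025 genes reached, and they began 61, 45, 28 and 15 bases before the start. The 250 bases before the start are printed for Lamp1 (GRCm39, chr8:13208911-13209160, plus strand) and Atg3 (chr16:44978942-44979191, plus strand), whose windows held the most copies among the 35 genes, with each CACGTG in capitals. The Atg3 copies began 94 and 71 bases before the start, and Atg3 transcripts fell in clone E3. The windows of Tfeb, Wipi1, Vmp1 and Gabarap did not contain these letters. A match is a description of the sequence and says nothing about occupancy in these cells.
Lamp1: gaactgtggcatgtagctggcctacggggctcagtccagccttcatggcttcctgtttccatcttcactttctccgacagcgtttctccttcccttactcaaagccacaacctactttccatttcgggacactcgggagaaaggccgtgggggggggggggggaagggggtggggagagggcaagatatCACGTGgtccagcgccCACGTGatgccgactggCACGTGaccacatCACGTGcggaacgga
Atg3: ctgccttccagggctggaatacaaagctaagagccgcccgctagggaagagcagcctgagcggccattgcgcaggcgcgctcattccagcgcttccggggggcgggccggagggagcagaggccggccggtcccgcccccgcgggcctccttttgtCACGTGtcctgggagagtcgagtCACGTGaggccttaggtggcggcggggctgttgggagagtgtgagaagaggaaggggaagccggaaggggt

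**Figure D3:**
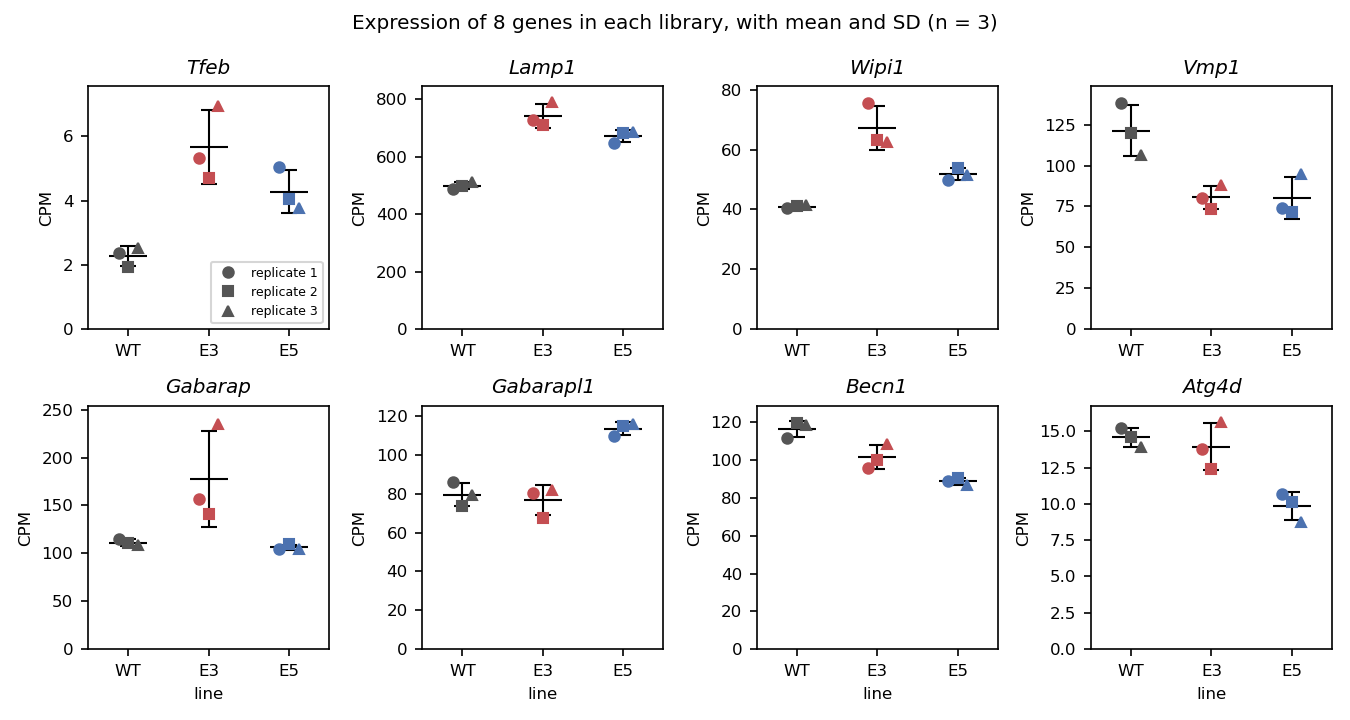
CPM of 8 genes (vertical axes, each starting at 0) in the 3 replicates (circles, squares and triangles) of WT, clone E3 and clone E5, with bars for the mean and SD. Tfeb, Lamp1 and Wipi1 lie higher and Vmp1 lower in both clones than in WT, Gabarap is highest in E3 and Gabarapl1 in E5, and Becn1 and Atg4d are lowest in E5.

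The ULK complex, the kinase assembly that initiates autophagosome formation, had 0 of 5 genes called in any comparison by edgeR, and 0 of 5 at an unadjusted p under 0.05 in E3 or in E5. Against WT its log2 fold changes spanned -0.19 to 0.22 for clone E3, and for clone E5 they spanned -0.07 to 0.28. Ulk1, the kinase, was at 29.1, 28.6 and 27.6 CPM in WT, 36.9, 35.7 and 26.6 in E3 and 29.0, 28.9 and 29.3 in E5. Replicates 1 and 2 of E3 were above WT and replicate 3 was not. The values of Rb1cc1 (FIP200, the scaffold) in clone E5, at 81.7 to 90.3 CPM, did not overlap those of WT, at 67.8 to 70.7, and its log2 fold change there was 0.28 ± 0.19 (adjusted p = 0.338). Atg101, the smallest transcript of the complex and an adaptor of Atg13, had its highest value in replicate 3 of E3, at 41.8 CPM against 27.6 and 27.6 in the sister libraries. Without that library Ulk1 was called higher in E3 (log2 fold change 0.35) and Rb1cc1 and Atg101 in E5 (0.29 and 0.26), and Ulk2 and Atg13 were not called in either.

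In the class III PI3K group, Becn1 was lower in clone E5 and the other 6 genes were not called against WT in either clone. Becn1 (ENSMUSG00000035086.14, chromosome 11 from 101176778 to 101193112, minus strand), the scaffold Beclin 1, was at 112, 119.7 and 119 CPM in WT, 96.1, 100.2 and 109 CPM in E3 and 89.2, 90.4 and 86.7 CPM in E5. The 3 lines did not overlap, and E5 was lowest. Relative to WT, E5 was lower by a log2 fold change of -0.39 ± 0.09 (adjusted p = 0.0094), and E3 gave -0.20 ± 0.09 (adjusted p = 0.11) without a call. The E5 value without WT replicate 2 was -0.38 with an adjusted p of 0.0546. Exons of Becn1 overlap those of Cntd1 on the opposite strand over 3227 bases.

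Rubcn, which encodes Rubicon, an inhibitor of autophagosome maturation, was at 46.4, 46.7 and 44.3 CPM in WT, 50.2, 52.9 and 32.5 CPM in E3 and 65.2, 61.7 and 59.2 CPM in E5. E5 exceeded E3 by 0.46 ± 0.16 on the log2 scale (adjusted p = 0.049), and the comparison of E5 with WT gave 0.44 ± 0.16 (adjusted p = 0.0771). The call between clones was lost in 7 of 9 fits that left out a library, all but those without replicate 2 or 3 of E3, with log2 fold changes of 0.42 to 0.54 and adjusted p-values of 0.0529 to 0.139. The 100 nearest tested genes on chromosome 16 had a median of 0.31 in the same contrast. The kinase Pik3c3 (VPS34), its partner Pik3r4, and Atg14, Uvrag and Ambra1, which steer the complex to its sites, had log2 fold changes that spanned -0.33 to 0.22 for E3, and -0.29 to 0.20 for E5. With replicate 3 of clone E3 left out, Pik3r4 was called higher in E3 (0.39) and Pik3c3 (0.20) and Rubcn (0.44) higher and Uvrag lower (-0.29) in E5.

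Of the membrane supply genes, Wipi1 rose and Vmp1 fell in both clones, and Wipi2 fell in clone E3. Wipi1 (ENSMUSG00000041895.16, chromosome 11 from 109464157 to 109502793, minus strand), a reader of phosphatidylinositol 3-phosphate, was at 40.5, 41.1 and 41.3 CPM in WT, 75.6, 63.2 and 62.7 CPM in E3 and 49.96, 53.8 and 51.6 CPM in E5. The lines formed 3 separate levels, with E5 between WT and E3. The rise over WT was 0.71 ± 0.10 on the log2 scale for E3 (adjusted p = 0.000471). For E5 it was 0.34 ± 0.10 (adjusted p = 0.0327), and E5 was lower than E3 by -0.37 ± 0.10 (adjusted p = 0.0142). The E3 call held in all 9 fits that left out a library. The E5 call was lost when any WT or any E5 library was left out (log2 fold changes 0.31 to 0.36, adjusted p 0.0782 to 0.136), and the call between clones without replicate 1 or 3 of E5 (-0.35 and -0.37, adjusted p 0.0559 and 0.0518).

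Wipi2, the paralog that recruits the ATG16L1 complex, moved the other way in clone E3. It was at 165, 182 and 185 CPM in WT, 141, 144 and 134 CPM in E3 and 171, 186 and 179 CPM in E5. Values in E3 were below all others, and WT and E5 overlapped. E3 differed from WT by a log2 fold change of -0.34 ± 0.09 (adjusted p = 0.015), E5 by 0.01 ± 0.09, and E5 exceeded E3 by 0.36 ± 0.09 (adjusted p = 0.0119). The E3 call was lost without WT replicate 2 or 3 (-0.33 to -0.31, adjusted p 0.072 and 0.0725) and that between clones without E5 replicate 2 (0.33, adjusted p = 0.0636). The ratio of Wipi1 to Wipi2 CPM was 0.232 ± 0.012 in WT, 0.481 ± 0.049 in E3 and 0.290 ± 0.002 in E5.

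Vmp1 (ENSMUSG00000018171.10, chromosome 11 from 86474691 to 86574662, minus strand), a lipid scramblase of the endoplasmic reticulum, was at 138, 119.7 and 107 CPM in WT, 79.9, 73.7 and 87.8 CPM in E3 and 73.8, 71.7 and 94.8 CPM in E5. No KO library reached the lowest WT value, and the clones overlapped. The fall from WT was of like size in the clones, with a log2 fold change of -0.59 ± 0.14 for E3 (adjusted p = 0.00903) and -0.60 ± 0.14 for E5 (adjusted p = 0.0118). The E5 call was lost without WT replicate 1 or without replicate 1 or 2 of E5 (-0.55 to -0.50, adjusted p 0.0557 to 0.0622). The microRNA gene Mir21a lies on the same strand within exons of the Vmp1 gene over 92 bases. Atg9a, the scramblase of ATG9 vesicles, Atg2a and Atg2b, the lipid transfer proteins, were not called, with log2 fold changes of 0.18, 0.24 and -0.26 for E3 and 0.22, 0.31 and 0.30 for E5. When replicate 3 of clone E3 was left out, Atg9a (0.23 and 0.22) and Atg2a (0.39 and 0.31) were called higher in both clones, and Atg2b in E5 (0.31).

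**Figure D4:**
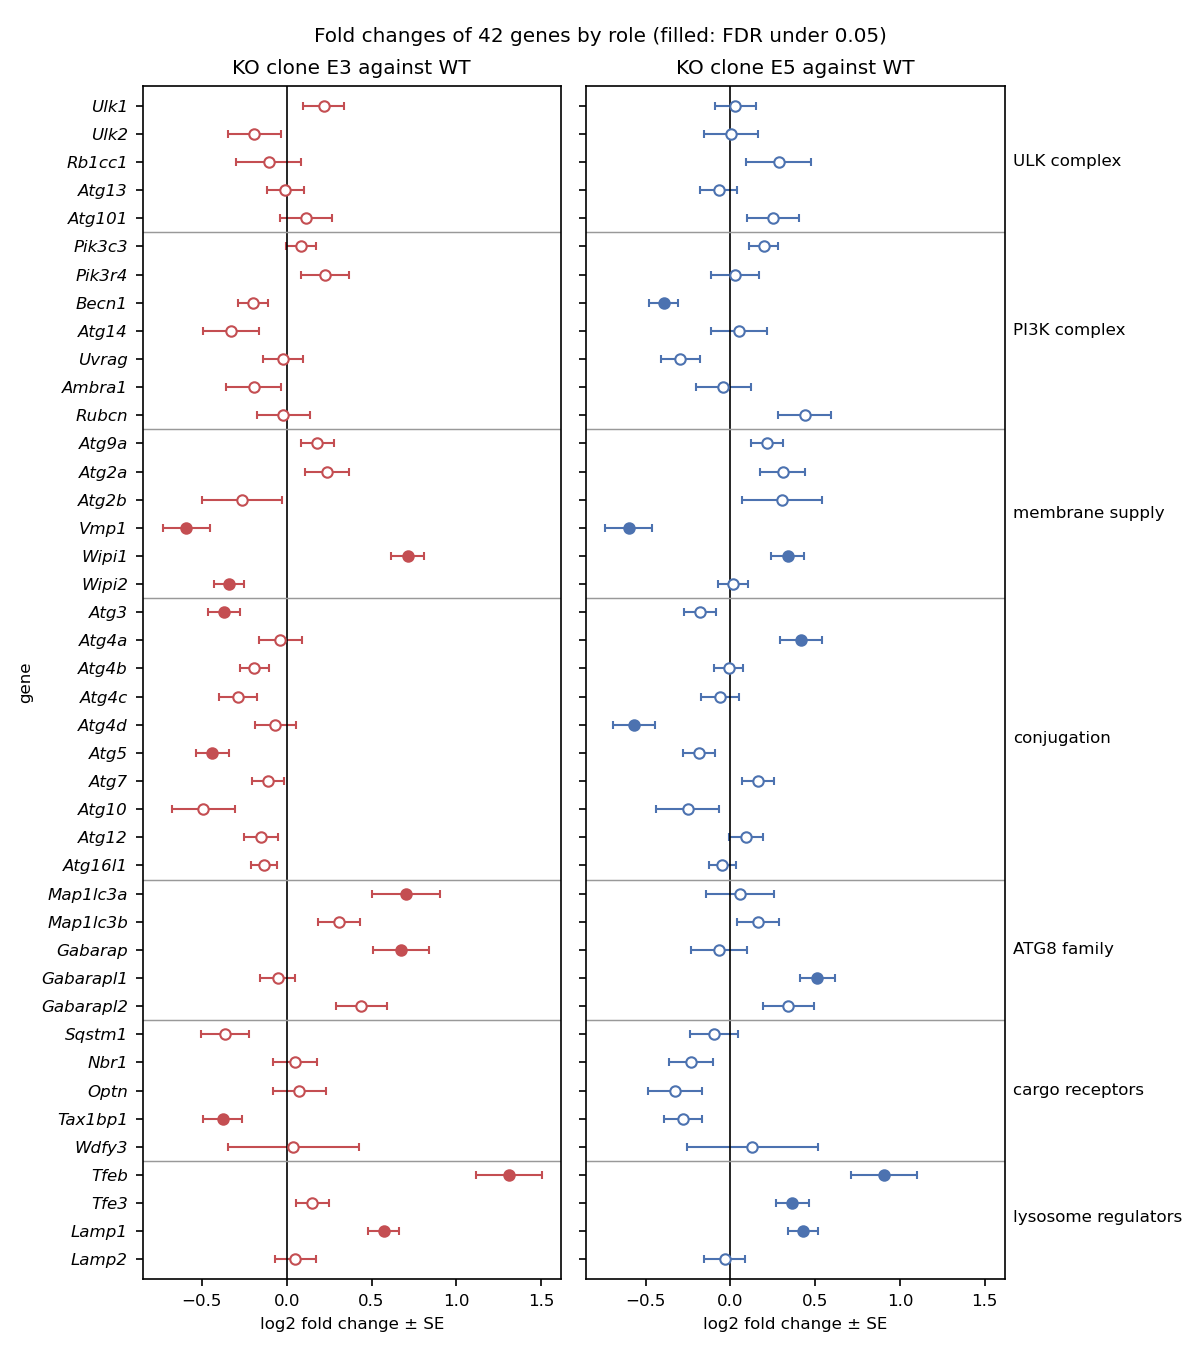
Log2 fold change against WT (horizontal axis, with standard error) of the 42 genes, grouped by role, in clone E3 (left) and clone E5 (right), with filled points for an FDR under 0.05. Tfeb has the largest value in both panels, 1.31 and 0.91, and in clone E3 Atg5 and Atg3 are the only filled points among the conjugation genes.

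In the conjugation machinery 2 of 10 genes, Atg5 and Atg3, were called lower in clone E3. The log2 fold changes there had a median of -0.17 and all 10 were negative, though Atg4a and Atg4d turned positive under upper-quartile scaling and 1 of them without replicate 2 or 3 of E3 or WT replicate 1. In clone E5 the median was -0.05, with 7 of 10 negative, Atg4d called lower and Atg4a called higher. Atg5 (ENSMUSG00000038160.8, chromosome 10 from 44144354 to 44240287, plus strand), which is joined to Atg12 to form the ligase of lipidation, was at 33.3, 33.1 and 30.6 CPM in WT, 21.8, 24.4 and 25.4 CPM in E3 and 30.0, 27.6 and 27.9 CPM in E5. The lines did not overlap, and E3 was lowest. For E3 the log2 fold change was -0.44 ± 0.09 (adjusted p = 0.0062), and E5 gave -0.18 ± 0.09 (adjusted p = 0.205). The E3 call held in every fit that left out a library. The 100 tested genes nearest to Atg5 on chromosome 10 had a median log2 fold change of -0.39 for E3 against WT, where the E5 value was -0.06, so the neighbourhood moved with Atg5 in E3, and its part in the result was not tested.

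Atg3, the E2-like enzyme of ATG8 lipidation, was at 50.1, 49.997 and 52.6 CPM in WT, 37.9, 36.5 and 43.7 CPM in E3 and 43.3, 44.1 and 47.4 CPM in E5. Both clones lay below WT throughout and overlapped with each other. Atg3 was lower than WT in E3 by a log2 fold change of -0.37 ± 0.10 (adjusted p = 0.0152), and E5 gave -0.18 ± 0.10 (adjusted p = 0.226). The E3 call was lost without WT replicate 3 (-0.35, adjusted p = 0.0613). In the fit that left out replicate 3 of clone E3, Atg3 was called lower in E5 as well (-0.17), and Atg4b (-0.23) and the E2-like enzyme Atg10 (-0.61) were called lower in E3.

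The ATG4 proteases, which process and delipidate ATG8 proteins, diverged within clone E5. Atg4d (ENSMUSG00000002820.7, chromosome 9 from 21176589 to 21189068, plus strand) was at 15.2, 14.6 and 14.0 CPM in WT, 13.8, 12.4 and 15.6 CPM in E3 and 10.7, 10.1 and 8.75 CPM in E5. The E5 libraries lay below all others, and WT and E3 overlapped. Against WT the log2 fold change was -0.57 ± 0.12 in E5 (adjusted p = 0.00815) and -0.07 ± 0.12 in E3, and it was -0.50 ± 0.12 (adjusted p = 0.0105) between the clones. Both calls held in every fit that left out a library. The 100 nearest tested genes on chromosome 9 had a median of -0.26 in E5 against WT, and exons of Atg4d overlap those of Kri1 on the other strand over 2452 bases.

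Atg4a was at 8.13, 6.98 and 7.18 CPM in WT, 7.38, 7.80 and 6.53 CPM in E3 and 11.0, 9.0004 and 9.75 CPM in E5. Values in E5 exceeded the rest, at a log2 fold change of 0.42 ± 0.13 (adjusted p = 0.0412) over WT and 0.45 ± 0.13 (adjusted p = 0.0201) over E3. The call against WT was lost in 7 of 9 fits that left out a library, all but those without replicate 2 or 3 of E3, with log2 fold changes of 0.33 to 0.48 and adjusted p-values of 0.0523 to 0.167. The call between the clones was lost without replicate 1 of E5 (0.37, adjusted p = 0.0827). Atg4b and Atg4c, the other 2 proteases, were at -0.19 and -0.29 in E3 and -0.01 and -0.06 in E5, without a call. Of the remaining conjugation genes, Atg7, the E1-like enzyme, was called only between the clones (0.28 ± 0.09 higher in E5, adjusted p = 0.0451), and the call was lost in 7 of 9 fits that left out a library, all but those without replicate 3 of E3 or of E5, with log2 fold changes of 0.22 to 0.28 and adjusted p-values of 0.0638 to 0.182. Atg10, Atg12 and Atg16l1 had log2 fold changes of -0.49, -0.15 and -0.14 in E3 and -0.25, 0.09 and -0.05 in E5.

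In the ATG8 family, whose members coat the autophagosome membrane, Gabarap and Map1lc3a rose in clone E3 and Gabarapl1 rose in clone E5, and each of the 3 differed between the clones. Gabarap (ENSMUSG00000018567.15, chromosome 11 from 69881969 to 69885777, plus strand) was at 115, 111 and 109 CPM in WT, 157, 141 and 235 CPM in E3 and 105, 109.5 and 104 CPM in E5. All E3 values were above the rest, replicate 3 far above the other 2. E3 exceeded WT by 0.67 ± 0.16 on the log2 scale (adjusted p = 0.0111), E5 gave -0.07 ± 0.16, and E5 was lower than E3 by -0.74 ± 0.16 (adjusted p = 0.00651), the largest difference between the clones among the 42 genes in absolute size. Without replicate 3 of E3 the differences were 0.42 and -0.48 and remained called.

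Gabarapl1 (ENSMUSG00000030161.9, chromosome 6 from 129510123 to 129519309, plus strand) was at 85.9, 73.7 and 79.1 CPM in WT, 80.5, 67.8 and 81.8 CPM in E3 and 109.8, 115 and 116 CPM in E5. The E5 libraries lay above all others, and WT and E3 overlapped. E5 was higher than WT by a log2 fold change of 0.51 ± 0.10 (adjusted p = 0.00574), with -0.05 ± 0.10 in E3 and 0.57 ± 0.10 (adjusted p = 0.00222) between the clones. Both calls held in every fit that left out a library. The ratio of Gabarapl1 to Gabarap CPM was 0.714 ± 0.042 in WT, 0.447 ± 0.088 in E3 and 1.07 ± 0.040 in E5, and its values within E3 were 0.514, 0.480 and 0.347. The lines were fully separated on this ratio. Exons of Gabarapl1 overlap a noncoding RNA on the other strand over 1146 bases.

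Map1lc3a, which encodes LC3A, was at 12.02, 10.1 and 9.46 CPM in WT, 15.3, 12.8 and 23.3 CPM in E3 and 10.0, 11.1 and 11.6 CPM in E5. The E3 libraries lay above the rest, and the transcript, at 823 bases, is the shortest of the 42. E3 was above WT by a log2 fold change of 0.70 ± 0.20 (adjusted p = 0.0229), and by 0.42 without replicate 3. The call was lost without WT replicate 2 or 3 (0.63 to 0.67, adjusted p 0.0807 and 0.0882). E5 was lower than E3 by -0.65 ± 0.20 (adjusted p = 0.0308), a call that was lost when any E5 library was left out (-0.69 to -0.59, adjusted p 0.0659 to 0.0964). Map1lc3b, the source of LC3B, was at 126, 113 and 107 CPM in WT, 131, 127 and 169.5 CPM in E3 and 128, 124 and 135 CPM in E5, without a call (0.31 ± 0.12 and 0.16 ± 0.12). Gabarapl2, a further family member, gave 0.44 ± 0.15 for E3 (adjusted p = 0.0509), and E5 gave 0.34 ± 0.15 (adjusted p = 0.144), with values of 30.4 to 38.9 CPM in WT below the 39.3 to 57.7 CPM of both clones. It was called higher in E5 without replicate 3 of E3 (0.35).

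Among the cargo receptors and adaptors, Tax1bp1 was lower in clone E3 and the other 4 were not called against WT in either clone. Tax1bp1, a receptor for ubiquitylated cargo, was at 265, 265 and 269 CPM in WT, 226, 219 and 169 CPM in E3 and 217, 217 and 224 CPM in E5. Every KO value was lower than every WT value. On the log2 scale E3 differed from WT by -0.38 ± 0.11 (adjusted p = 0.0282), and the E5 value was -0.28 ± 0.11 (adjusted p = 0.11). The E3 call was lost without any of the WT libraries or without replicate 2 of E5 (-0.39 to -0.37, adjusted p 0.0523 to 0.0905). With replicate 3 of E3 left out, Tax1bp1 was called lower in both clones (-0.26 and -0.27).

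Sqstm1, which encodes p62, the classical receptor that is itself consumed by autophagy, had the highest level per kilobase of the 42 genes in WT, followed by Lamp1, whether the annotated canonical transcript or all exons set the length. It was at 959.7, 938 and 906 CPM in WT, 738, 602 and 838 CPM in E3 and 744, 876 and 1001 CPM in E5. E3 lay below WT throughout, and E5 overlapped WT. It gave a log2 fold change of -0.36 ± 0.14 for E3 (adjusted p = 0.0776) and -0.10 ± 0.14 for E5, and without replicate 3 of E3 it was called lower in E3 (-0.48). Nbr1 and Optn, further receptors, were at 0.05 and 0.07 in E3 and at -0.23 and -0.33 in E5, and Wdfy3 at 0.04 ± 0.38 and 0.13 ± 0.38. Without replicate 3 of E3, Nbr1 was called lower in E5 (-0.23) and Wdfy3 higher in E3 (0.45).

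Beyond the 42 genes, 7 further lists from the same pathways held 177 genes, of which 173 were tested. In clone E3, 30 of them were called higher and 18 lower, and in E5 12 were called higher and 26 lower, which compares with 15.7% higher and 14.7% lower of all genes in E3 and 8.96% and 11.7% in E5. With replicate 3 of E3 left out, 44 were called higher and 43 lower in E3, beside 21.8% and 21.5% of all genes, and 34 higher and 48 lower in E5, beside 20.8% and 21.2%. For each list, the share called is set beside the 30.5% of all genes called in E3 and the 20.6% called in E5, or 43.2% and 42% without that library. Named genes are those with the largest called changes in a list, and no log2 fold change of theirs that was called against WT changed sign when a library was left out.

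Among 42 lysosomal hydrolases and cofactors, 9 rose and 2 fell in E3 (26.2% called), and 5 rose and 8 fell in E5 (31.0%). Without replicate 3 of E3 the counts were 11 higher and 9 lower in E3 (47.6%), and 9 higher and 18 lower in E5 (64.3%). Gm2a, the activator of ganglioside breakdown, went from 3.10 ± 0.076 CPM in WT to 8.24 ± 1.28 in E3 and 7.69 ± 0.246 in E5 (log2 fold changes 1.41 ± 0.14 and 1.31 ± 0.14, adjusted p 6.87e-05 and 9.61e-05). Smpd1, acid sphingomyelinase, rose by 0.74 ± 0.10 and 0.61 ± 0.10, and Lipa, the acid lipase, rose in E3 (0.69 ± 0.11) with 0.34 ± 0.11 in E5. Hexa, a subunit of hexosaminidase, was lower in E5 (-0.82 ± 0.14) with -0.30 ± 0.14 in E3. The largest falls in E5 were of 2 cathepsins at low levels, which are named after their values were seen. Ctsf had 45 to 75 counts per WT library, 38 to 61 in E3 and none in any E5 library, so that it was at least 18.4-fold lower in E5 than in WT against a floor of 3 counts per library. Ctsh had 5 to 11 counts in WT, 7 to 13 in E3 and none in E5, at least 2.33-fold lower against the same floor.

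Of 21 lysosomal membrane proteins, 3 rose and 3 fell in E3 and 0 rose and 6 fell in E5 (28.6% called in either). Without replicate 3 of E3, 4 rose and 5 fell in E3 and 2 rose and 7 fell in E5 (42.9% in either). Gpnmb fell from 793 ± 5.36 CPM in WT to 324 ± 34.5 in E3 and 586 ± 69.6 in E5 (log2 fold changes -1.29 ± 0.12 and -0.44 ± 0.12). Npc1, which exports cholesterol from lysosomes, fell in E3 (-0.64), and Tmem192 rose there (0.49). In E5 the falls were led by Laptm4b (-0.79), Scarb2, the receptor that carries glucocerebrosidase to lysosomes (-0.71), and Cln3 (-0.69), which gave -0.09, -0.22 and -0.23 in E3 without a call. Of 18 V-ATPase subunits, the proton pump of the lysosome, 4 rose and 1 fell in E3 (27.8%) and 1 rose and 1 fell in E5 (11.1%), and without replicate 3 of E3 these became 5 and 6 in E3 (61.1%) and 2 and 5 in E5 (38.9%). Atp6ap2 rose in both clones (0.48 ± 0.10 and 0.37 ± 0.10), Atp6v0e rose in E3 (0.46), Atp6v0e2 fell in E3 (-1.64 ± 0.17) and Atp6v1g1 fell in E5 (-0.66).

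Upstream of the ULK complex, 35 genes of mTORC1 and nutrient sensing were tested. In E3, 7 rose and 5 fell (34.3% called), and in E5 2 rose and 5 fell, a share within 1 percentage point of that of all genes. Without replicate 3 of E3 the counts were 10 and 11 in E3 (60.0%) and 7 and 7 in E5 (40.0%). Sesn2, a leucine sensor, fell in both clones (-1.44 ± 0.14 and -0.69 ± 0.14), as did Rheb, the activator of mTORC1 (-0.79 ± 0.13 and -0.69 ± 0.13). Deptor, an inhibitor of mTOR, fell in E3 from 304 ± 16.9 to 121 ± 24.3 CPM (-1.33 ± 0.15), with -0.18 ± 0.15 in E5. Rragd, a GTPase that recruits mTORC1 to the lysosome, was lower in E3 (-0.67 ± 0.13) and higher in E5 (1.29 ± 0.12), and E5 exceeded E3 by 1.96 ± 0.13 (adjusted p = 2.24e-06). Sesn3, a relative of Sesn2, had 267 to 345 counts per WT library and 374 to 954 in E3 (1.25, called), and no count in any E5 library, at least 99.8-fold lower than WT against the floor of 3 counts per library. Rragb, a GTPase of the same family as Rragd that was below the level set for naming, had 24 to 35 counts in WT, 127 to 145 in E3 (2.30 ± 0.22) and none in E5, at least 9.59-fold lower than WT.

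Of 19 genes of fusion with the lysosome, 2 rose and 3 fell in E3 (26.3%) and 1 rose and 2 fell in E5 (15.8%), and without replicate 3 of E3 the counts were 3 and 4 in E3 (36.8%) and 4 and 6 in E5 (52.6%). Tecpr1 fell in both clones (-1.08 ± 0.13 and -0.95 ± 0.13), Epg5 (-0.81) and the SNARE protein Stx7 (-0.64) fell in E3, and in E5 Rab2a rose (0.44) and Vps16, a subunit of the tethering complexes, fell (-0.33). Of 19 other receptors and adaptors, 3 rose and 2 fell in E3 (26.3%) and 2 rose and 1 fell in E5 (15.8%), and 7 and 3 in E3 (52.6%) and 4 and 2 in E5 (31.6%) without that library. Stbd1, which tethers glycogen, fell from 36.7 ± 1.45 CPM to 4.47 ± 1.31 in E3 and 11.9 ± 5.14 in E5 (-3.03 ± 0.31 and -1.62 ± 0.29). Trp53inp2, which binds ATG8 proteins, rose in E3 from 5.70 ± 0.302 to 16.1 ± 2.99 CPM (1.502 ± 0.168), with -0.37 ± 0.17 in E5. Ncoa4, the ferritin receptor, fell in E3 (-0.62), and the mitochondrial receptor Fundc1 (0.52) and the endoplasmic reticulum receptor Retreg1 (0.29) rose in E5.

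Of 19 tested genes among the other core autophagy and MiT factors, 2 rose and 2 fell in E3 and 1 rose and 3 fell in E5 (21.1% in either), and without replicate 3 of E3 the counts were 4 and 5 in E3 and 6 and 3 in E5 (47.4% in either). The transcription factor Mitf, of the same family as Tfeb and Tfe3, was lower in E3 (-0.86 ± 0.17, adjusted p = 0.00409), in the opposite direction to Tfeb, and had 0.17 ± 0.17 in E5. Nrbf2, a subunit of the PI3K complex, was lower in both clones (-0.33 ± 0.10 and -0.39 ± 0.10). The transcription factor Foxo1 (0.52) and the GTPase Rab1a (0.51) rose in E3, and in E5 Atg9b, the paralog of Atg9a, rose (0.45) and Bcl2l1, which binds Beclin 1, fell (-0.37).

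Of the 46 calls against WT of these named genes, 28 held in all 9 fits that left out a library, and the other 18 were lost in at least 1 of them, with adjusted p-values of 0.0506 to 0.175. Those of Tmem192, Atp6v0e and Ncoa4 in E3 and of Atp6ap2, Vps16 and Retreg1 in E5 were lost without any WT or any E5 library, and those of Epg5 in E3 and Atg9b in E5 also without replicate 1 of E3. Those of Gpnmb and Rab2a in E5 were lost without any WT library or replicate 1 or 2 of E5, and those of Atp6v1g1 and Nrbf2 in E5 without WT replicate 1 or 2 or any E5 library. In E3, that of Npc1 was lost without any WT library, that of Foxo1 also without replicate 1 of E3, that of Sesn3 without WT replicate 2, and that of Nrbf2 without replicate 1 or 2 of WT or of E3 or replicate 2 of E5. In E5, that of Fundc1 was lost without WT replicate 2 or 3 or replicate 1 of E5, and that of Bcl2l1 without WT replicate 2 or 3 or replicate 1 or 2 of E5.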

How the data were processed

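RNA-seq libraries of 3 WT, 3 KO clone E3 and 3 KO clone E5 replicates of LLC cells, grouped and numbered by the labels, were analysed. Directional polyA libraries were sequenced in paired-end mode. Per the submitters' processing notes, reads were checked with FastQC, trimmed with Trimmomatic and aligned to GRCm39 with STAR. The authors deposited raw counts per gene without normalization or pooling, together with gene positions. The tool that counted reads, its use of strand and the version of the annotation are not given in the sources used here, so genes that overlap on opposite strands are uncertain.

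From the counts, edgeR 4.0.16 (R 4.3.3) was used with TMM scaling, filterByExpr (minimum count 10, minimum total 15) and the quasi-likelihood test, with the 3 lines in 1 fit and Benjamini-Hochberg adjustment over 14593 genes. The coefficient of variation between replicates was 14.8%. Standard errors are the log2 fold change over the root of the F statistic. At depths of 44257404 to 55095219 counts, the counting error of the 42 genes had a median of 2.07% in WT and was below the spread between WT replicates for 36 of them, but it reached 9.53% for Tfeb. In simulated counts for E3 against WT over 14355 genes, 16 of 100 genes changed by 0.5 and 91 of 100 changed by 1 on the log2 scale were recovered. There were 5 false calls, and a change of the former size was mostly missed in the simulation. Only 100 genes of each size were changed there, while 4445 genes were called in the data for this contrast. The FDR cutoff was therefore stricter in the simulation, and the shares recovered need not hold for the data.

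The 42 genes, their roles and the further lists were chosen with earlier results of these data known and were not checked against a database. Detailed genes were those called in both clones, DEGs, the called gene with the largest change per role and clone, and the 3 largest called changes per further list and clone at an average log2 CPM above 1. Ctsf, Ctsh and Rragb, below that level, were added after their values were seen. Other called genes, among them Gabarap, Wipi2, Tfe3, Atg3, Atg4a, Atg7 and Rubcn, and uncalled ones were described after their values were seen. One listed gene, Vamp7, had no row. Transcript lengths came from the GENCODE canonical transcript for GRCm39, whose gene coordinates equalled the deposited ones for 28225 of 50267 shared identifiers, and promoter windows from RefSeq (GRCm38.p6), with those printed located in GRCm39 by exact match. Neighbours were the 50 tested genes on either side. Alternatives were DESeq2 1.42.0, its size factors, upper-quartile scaling, 2 other filters, a replicate block, only the groups compared, and each library left out. A length trend as an offset was added after seeing the data.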

Additional observations from a re-analysis of the deposited data

Results flagged for a closer look

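The change from WT differed between the clones for 9 of the 42 genes, as tested by the contrast of clone E5 with clone E3 in the fit of all 3 lines. In that contrast 31.9% of all tested genes were called. In the ATG8 family the log2 difference of E5 over E3 was -0.74 for Gabarap, -0.65 for Map1lc3a and 0.57 for Gabarapl1. In the conjugation machinery it was 0.45 for Atg4a, -0.50 for Atg4d and 0.28 for Atg7. In membrane supply it was -0.37 for Wipi1 and 0.36 for Wipi2, and in the PI3K group 0.46 for Rubcn. Of the 9 genes, Wipi1 was called higher than WT in both clones. Of the 9 differences, those of Atg4d, Gabarap and Gabarapl1 stayed past the threshold under every alternative run and in every fit that left out a library.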

How the results depend on the processing

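No called log2 fold change of the 42 genes changed sign under any alternative (504 values for 28 gene and contrast pairs). For the genes with full statistics, of 594 alternative values for 33 pairs, called or not, 528 kept sign and side of the threshold, 28 lost a call, 21 of these by leaving out a library, 21 gained one and 17 changed sign, all of them in pairs that were not called. Under upper-quartile scaling Atg4d (0.016) and Gabarapl1 (0.028) turned positive in E3, and DESeq2 gave 0.0018 for Vmp1 between clones. Leaving out 1 library gave -0.11 to 0.21 for Atg101, -0.16 to 0.0066 for Atg4d and -0.11 to 0.025 for Gabarapl1 in E3, -0.020 to 0.16 for Map1lc3a in E5, and -0.14 to 0.069 for Vmp1 and -0.012 to 0.17 for Tax1bp1 between clones. With the length trend as an offset, an alternative chosen after seeing the data, Atg101 gave -0.0085 and Atg4d 0.084 in E3, and with replicate 3 of E3 also left out Atg101 gave -0.091, Vmp1 0.063 and Tax1bp1 -0.023. Without replicate 3 of E3 alone, 7 of the 42 log2 fold changes in E3 changed sign, none of them called (Atg101, Atg13, Atg2b, Atg4a, Rb1cc1, Rubcn and Uvrag), 0 in E5 and 8 between clones.

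Leaving out 1 library gave 6 to 19 called genes for E3 against WT (10 with all libraries), 5 to 21 for E5 against WT (9), 4 to 21 for E5 against E3 (9) and 0 to 8 for both clones in 1 contrast (4). Each maximum came without replicate 3 of clone E3. The minima came without WT replicate 3 (6 in E3), without WT replicate 1 or 2 or replicate 1 or 2 of E5 (5 in E5), without replicate 1 of E5 (4 between clones, and 5 without replicate 2), and without WT replicate 1 or 2 (0 in the joint contrast, and 1 without replicate 3). At these minima 20.1% of all genes were called in E3, 11.9% to 13.1% in E5 and 24.6% between clones. For the joint contrast the shares were 1.65% and 1.35%. Fitting only the groups compared gave 23 for E5 against WT and 3 for E5 against E3, with 46.8% and 22.0% of all genes called. The length trend as an offset gave 16, 16, 18 and 7, where the share of all genes called was also higher, at 39.6%, 30.7%, 40.7% and 11.99%, and with replicate 3 of clone E3 also left out 21, 22, 23 and 8 (44.3%, 42.9%, 45.1% and 16.4% of all genes). The replicate block gave 9, 6, 8 and 0, with 25.1%, 15.8%, 26.6% and 2.11% of all genes called. Deviations of same-numbered libraries correlated between -0.17 and 0.05 over 9 pairs, and those of differently numbered ones between -0.16 and 0.18. Whether same-numbered libraries were prepared together is not given in the labels. These correlations cannot decide it, because deviations were taken from the mean of each line, which constrains them. DESeq2 gave 12, 9, 10 and 6, with 27.5%, 19.6%, 28.3% and 11.7% of the genes it tested called. The causes were not tested. Changes of 0.5 on the log2 scale were mostly missed in the simulation with 3 libraries per line. Its FDR cutoff was stricter than that of the data, so this need not hold for the data. Several called changes of that size or less were lost when a library was left out.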
